A study of Sus scrofa with 12 samples.

Results

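Ovarian transcripts of the cytosolic ribosomal proteins were measured in 12 sows killed on day 30 of pregnancy. The genes were taken by symbol from the array annotation: every single symbol that starts with RPL or RPS and a digit, with RPSA, RPLP0, RPLP1 and RPLP2 and without the S6 kinases. This gave 64 of 6765 genes with a single symbol, read by 96 probe sets, and each gene is described by its brightest probe set. Every sow came from an F2 cross of the Iberian and Meishan breeds. The labels divide them by estimated breeding value (EBV) for prolificacy into 6 sows of higher EBV, called high 1 to high 6, and 6 of lower EBV, called low 1 to low 6. The labels name no treatment and no ages, and kinship among the sows was not examined. Each sow has 1 Affymetrix porcine GeneChip of biotin-labelled cRNA from frozen tissue, and the sample is described as averaging the right with the left ovary.

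The cytosolic ribosome translates messenger RNA and is built from a small and a large subunit, each a scaffold of ribosomal RNA that carries many small basic proteins. Most of the proteins are needed in equal numbers, and ribosomal protein messengers are among the most abundant of most cells. Many of them start with a pyrimidine-rich tract through which growth signals set their translation together. At this stage of pregnancy the pig ovary is dominated by corpora lutea, whose cells make progesterone and relaxin.

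The rule took 31 proteins of the large subunit, 24 of the small subunit and 3 of the stalk, the acidic RPLP0, RPLP1 and RPLP2 that recruit elongation factors. It also took 5 paralogs, RPL7L1, RPL22L1, RPL26L1, RPL36AL and RPS27L, and RPS19BP1. The last binds RPS19 and has a matching symbol but is no ribosomal protein, and its values are given apart where they differ. As a description of probe sets chosen for their brightness, 56 of the 64 averaged above 12 on the log2 scale. Only 3 genes lay under 6, RPL26, RPL30 and RPS15A. RPS15A, at 2.53, stayed under the level of 4 that a probe set had to exceed in 6 sows to be tested, which left 63 genes. Levels of different probe sets depend on their probes and give no order of transcript amounts.

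Over the table as a whole the arrays were alike. Their medians ran from 4.81 to 4.97, rank correlations between sows from 0.974 to 0.993, and high 2 and high 3 had the lowest mean rank correlation with the others, 0.982 and 0.981. As a sign of RNA quality, the 3' minus 5' difference of the actin control, which widens as RNA is broken or copied incompletely, was larger in the high group, at 2.59 ± 0.45 (SD, n = 6) against 2.12 ± 0.13 (exact permutation test, two-sided, p = 0.0325, adjusted p = 0.0325 over 2 controls). For GAPDH it was 2.02 ± 0.20 against 1.77 ± 0.11 (exact permutation p = 0.0195, adjusted p = 0.0325). Both differences rest on control names that were reassigned, as given under the processing. Luteal markers stood high in every sow (RLN2 averaged 15.10 and STAR 14.58), and all 9 lymphocyte markers on the array averaged under 4.

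No ribosomal protein gene passed the test between high and low prolificacy. Of the 63 genes tested, 0 passed an adjusted p of 0.05 in limma, where the background was 0% of 13390 probe sets, and 0.919 was the lowest adjusted value, that of RPS19BP1. Before adjustment 0 of the 63 lay under 0.05, against a background of 5.64% of all probe sets. The values of both groups overlapped in all 63 genes, while 0.471% of all probe sets had groups that did not overlap. The differences were also small, with a median absolute difference of 0.037 on the log2 scale, against 0.12 over all probe sets tested. A difference under 0.1 was seen in 57 of the 63 genes and in 43.1% of all probe sets. This background was not matched for level: 56 of the 64 genes averaged above 12, against 1.54% of all probe sets besides controls.

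The p-values, intervals and standard errors set each difference against the spread between these sows. In limma that spread is moderated towards a common value over all probe sets tested. The 95% interval of the difference lay wholly within 1.5-fold in either direction for 62 of the 63 genes, and for 63.6% of all probe sets tested. The exception was RPS19BP1, whose interval ran from -0.68 to 0.12. Without it, interval bounds ran from -0.53 for RPS9 to 0.51 for RPL22L1. The median half-width was 0.25, against 0.35 over all probe sets, which were again not matched for level.

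**Figure D1:**
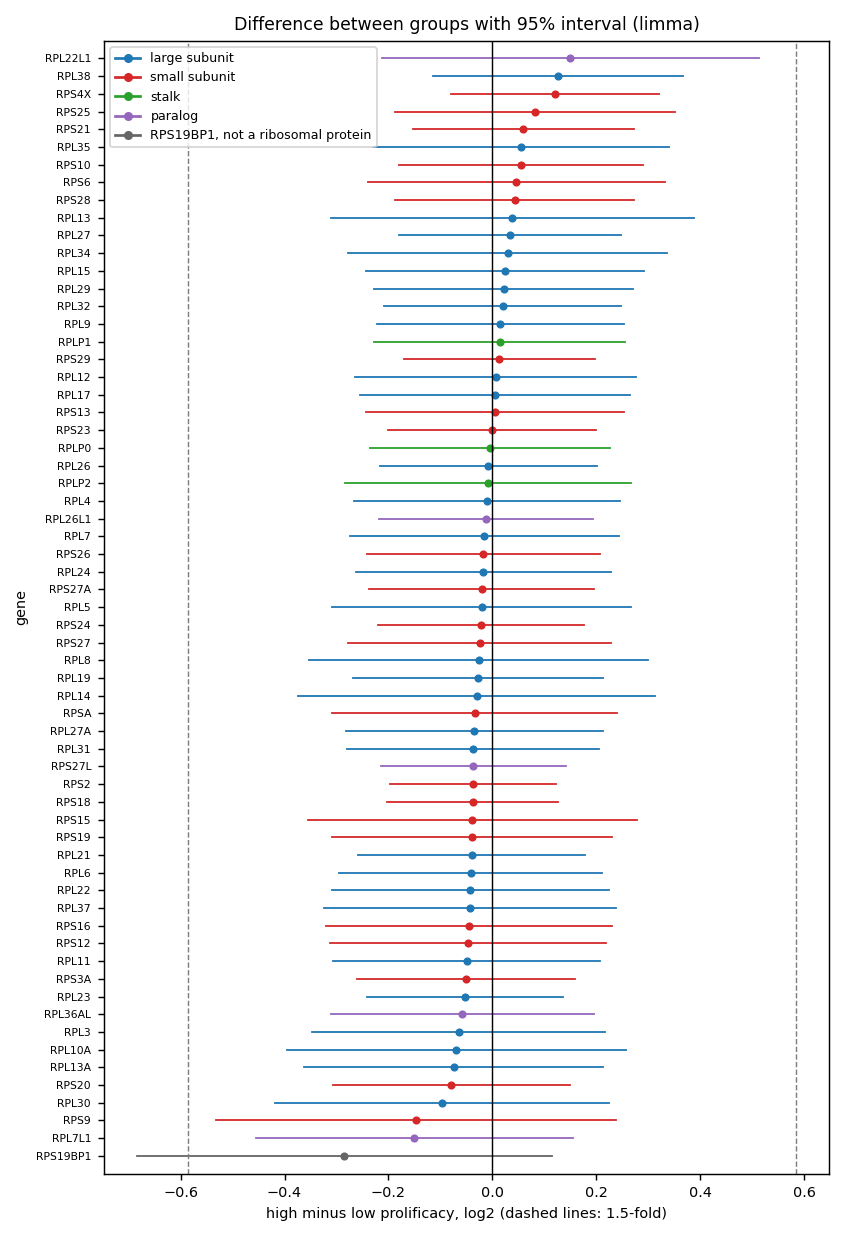
Difference between high and low prolificacy (x axis, log2, high minus low) with its 95% limma interval for the 63 ribosomal protein genes tested (y axis), coloured by class, with dashed lines at 1.5-fold. All intervals contain 0, and only that of RPS19BP1, from -0.68 to 0.12, reaches past a dashed line.

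Signs of the differences depended on how the arrays were scaled and on single sows. As deposited, 21 genes were higher and 42 lower in high prolificacy sows, a share higher of 33.3% against a background of 47.6% of all probe sets, and a share lower against 52.4%. The median difference was -0.021, against -0.010 over all probe sets. With each array centred on its median the split was 30 higher and 33 lower. With the actin 3' difference as a covariate it was 60 higher and 3 lower, with a median of 0.17, and still 0 genes passed (smallest limma adjusted p = 0.251). Leaving out 1 sow gave from 6 higher, without high 3, to 48 higher, without high 4. The count was 12 without high 1, 32 without high 2, 11 without low 2, 33 without low 3 and 13 without low 5. It was 7 without both high 2 and high 3, and 7 with array weights. The part of RNA quality in these signs was not tested.

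The subunits had nearly the same medians. Of the large subunit proteins 11 were higher and 20 lower, with a median of -0.021 and a range from -0.096 for RPL30 to 0.13 for RPL38. Of the 23 small subunit proteins tested 8 were higher and 15 lower, with a median of -0.022 and a range from -0.15 for RPS9 to 0.12 for RPS4X. The 3 stalk proteins lay between -0.0085 for RPLP2 and 0.014 for RPLP1, with RPLP0 at -0.0048. No test was made between the subunits.

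Among genes higher in high prolificacy sows the smallest p values belonged to RPS4X, RPL38, RPL22L1, RPS25, RPS21 and RPS10, and none passed. RPS4X, the small subunit protein encoded on the X chromosome, ran from 13.30 through a median of 13.54 to 13.73 in the high group and from 13.31 through 13.43 to 13.53 in the low group. High 1, high 3 and high 4 lay above every low sow, high 5 was level with the highest of them, and high 6 was just under the lowest. Its difference was 0.12 with a standard error of 0.092 (n = 6 per group, limma adjusted p = 0.927). RPL38, a small protein of the large subunit, ran from 13.30 through 13.40 to 13.76 against 13.12 through 13.36 to 13.56. Again high 1 and high 3 were highest and the other high sows lay among the low ones. The RPL38 difference was 0.13 with an interval from -0.11 to 0.37 (limma adjusted p = 0.931). RPS25, RPS21 and RPS10 of the small subunit differed by 0.082, 0.059 and 0.056.

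Among genes lower in high prolificacy sows, RPS9 had the widest gap of the subunit and stalk proteins. RPS9, which binds the ribosomal RNA early in the assembly of the small subunit, ran from 12.23 through 12.86 to 13.36 in the high group and from 12.54 through 13.09 to 13.16 in the low group. The highest and the lowest value both came from high sows, high 3 and high 4. Its difference of -0.15 had a standard error of 0.18 (limma adjusted p = 0.953). RPS20, RPL30 and RPL23 differed by -0.079, -0.096 and -0.053. RPS19BP1 ran from 7.54 through 8.11 to 8.56 in the high group and from 8.08 through 8.32 to 8.63 in the low group, a difference of -0.28 with a standard error of 0.18 (limma adjusted p = 0.919). High 1, high 2 and high 3 lay below every low sow, and the remaining high sows lay among them.

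Genes with roles beyond the ribosome, or used as references in PCR, gave the same picture. RPS6, the protein phosphorylated by S6 kinases on growth signals, ran from 13.13 through 13.36 to 13.85 in high and from 13.15 through 13.47 to 13.56 in low prolificacy sows, a difference of 0.046. RPL5 and RPL11, which bind the p53 regulator MDM2 when ribosome assembly fails, differed by -0.021 and -0.049. RPSA, also known as the laminin receptor, differed by -0.034, and RPS27A, made as a fusion with ubiquitin, by -0.021. Of common reference genes RPL4 differed by -0.011, RPL32 by 0.020, RPL13A by -0.075 and RPS18 by -0.038. Their limma adjusted p values and those of RPS6, RPL5, RPL11, RPSA and RPS27A lay between 0.981 and 0.995.

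Sows of the same group differed more than the groups did. A score per sow was formed by subtracting each gene's mean from its log2 value and averaging over the 63 genes, and it averaged -0.0082 ± 0.19 (SD, n = 6) in high sows and 0.0082 ± 0.12 in low sows. It was lowest in high 4, at -0.25, and highest in high 3, at 0.29, a span of 0.54 or 1.45-fold, and both ends lay in the high group. High 1 stood at 0.14, high 2 at -0.11, high 5 at -0.085 and high 6 at -0.028. In the low group low 3 was highest at 0.13 and low 2 lowest at -0.17, with low 4 at 0.094, low 6 at 0.071, low 1 at 0.011 and low 5 at -0.089. The groups overlapped over the whole range of the low sows.

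Most of the set shared this order of sows. In high 3 the value was above the gene's own mean in 62 of the 63 genes, and in high 1, low 3 and low 4 in 58. In high 4, high 5 and low 2 it was below in 58. High 3 held the highest value of 48 genes, where it held the highest of 19.2% of all probe sets tested, and high 4 held the lowest of 43 genes, where it held 9.93%. Low 2 was lowest in 12 genes, against 10.4% of all probe sets. Genes that share an array also share its normalization, so these counts describe the sows and have no test.

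**Figure D2:**
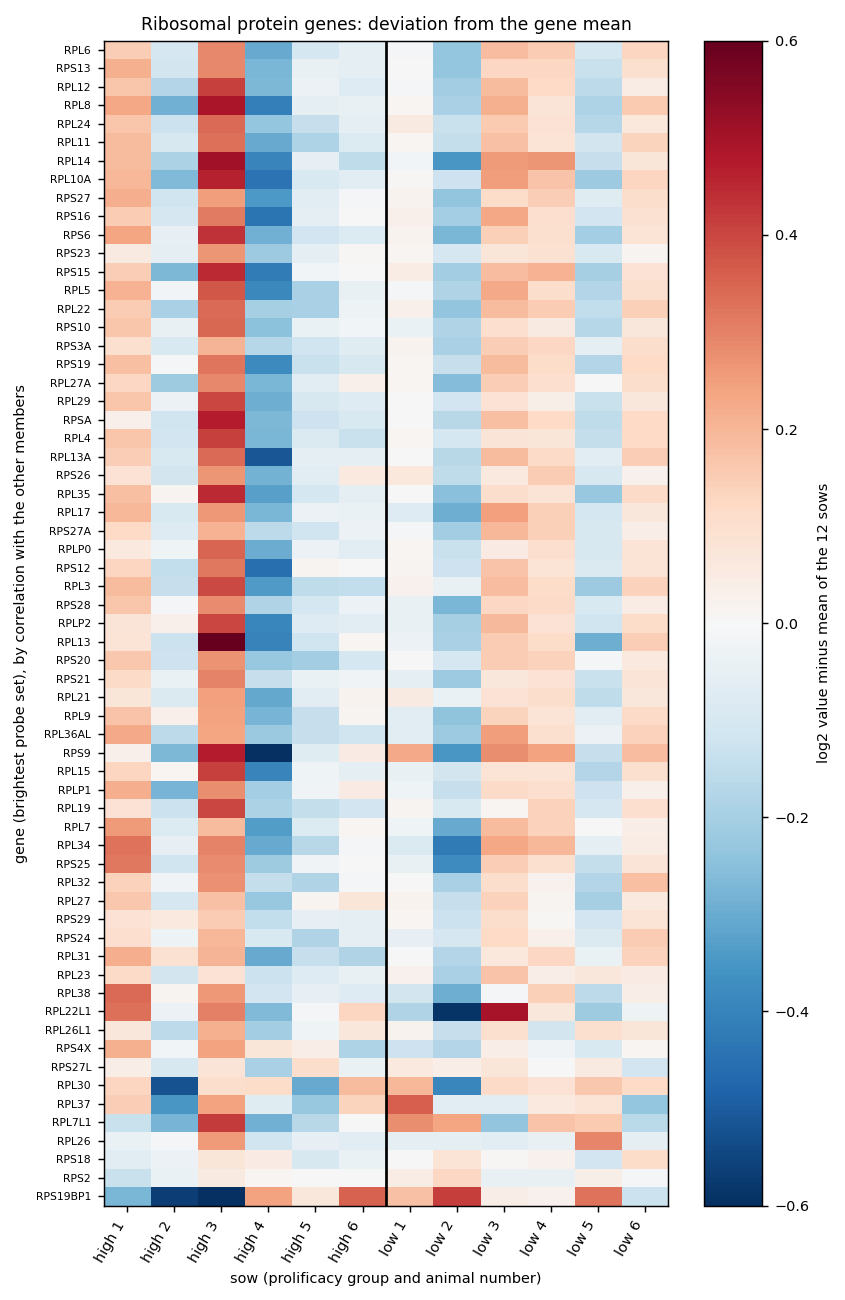
Log2 value of each of the 63 genes minus its mean over the 12 sows (colour), by sow (x axis, high group left of the line) and gene (y axis, ordered by correlation with the other members). Columns of one colour run down most of the map, reddest in high 3 and bluest in high 4, and RPS19BP1, RPS2 and RPS18 at the bottom break the pattern. The deepest colours are capped.

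As a description across the 12 sows, the median Pearson correlation between 2 ribosomal protein genes was 0.84 over 1953 pairs. It was 0.89 within the high group and 0.86 within the low group. Between any pair of probe sets tested, which were not matched for level, the median over the 12 sows was 0.0051. With the mean of the other members, 51 of the 63 genes correlated above 0.8 and 45 above 0.9. Of other probe sets tested, 4.61% correlated above 0.8 with the score and 4.34% below -0.8. RPL6 followed the other members most closely, at 0.984, and RPS13 and RPL12 followed at 0.980 and 0.979.

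The amplitude differed between genes. Over the 12 sows RPS9, RPL22L1, RPL13, RPL14 and RPL10A had the widest spreads of the ribosomal proteins, with SDs of 0.31, 0.30, 0.27, 0.27 and 0.25. RPL13, a large subunit protein, ran from 12.14 through 12.49 to 13.21 in the high and from 12.24 through 12.58 to 12.69 in the low group. RPL10A ran from 12.66 through 13.02 to 13.56 and from 12.88 through 13.17 to 13.35. In both the high sows spanned the low ones on either side. The narrowest were RPS2 and RPS18, with SDs of 0.065 and 0.072, then RPS27L at 0.093 and then RPS29. The median SD over the 63 genes was 0.18, against 0.29 over all probe sets and 0.28 over 22 dimmer probe sets of these genes. No array exceeded 15.34, and compression of the brightest probe sets near that ceiling was not tested. The brightest genes, in order, were RPL31 at 14.61 with an SD of 0.17, RPS29 at 14.52 with 0.0997 and RPS18 at 14.50 with 0.072.

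High prolificacy sows were the more spread group. The SD was larger in high than in low sows in 58 of 63 genes, or 92.1%, against 73.8% of all probe sets. The median SD was 0.22 against 0.15, where all probe sets tested gave 0.315 against 0.225. These genes vary together, so the count describes the sows and has no test. Without high 3 the count was 43, without high 4 it was 53, and without both it was 22, against 66.6%, 70.7% and 61.7% of all probe sets. Without high 2 and high 3 it was 49, against 60.3%. High 3 and high 4 hold the ends of the score of these genes, so leaving both out narrows the high group by construction.

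A few genes stood apart from the shared pattern. RPS2, which lies at the entry of messenger RNA into the small subunit, correlated with the other members at -0.34 and ran only from 13.83 in high 1 to 14.09 in low 2. RPS18 correlated at 0.18 in its brightest probe set, which ran from 14.39 to 14.61. Its other probe sets, at 14.16 and 13.35, correlated with the score at 0.946 and 0.874, so probe sets of RPS18 disagreed. RPS4X correlated at 0.55. RPS19BP1 went the other way, at -0.61, and was lowest in high 3, where 48 of the 63 genes were highest.

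**Figure D3:**
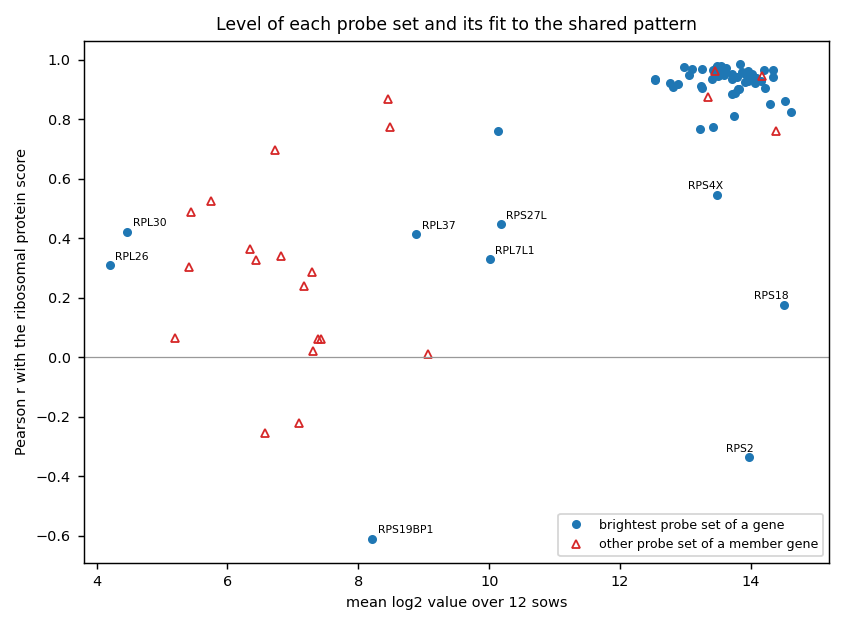
Mean log2 value over 12 sows (x axis) and Pearson correlation with the mean of the other members, or for further probe sets with the score (y axis), for the 63 genes tested (circles) and 22 further probe sets of the same genes (triangles). Of 56 circles above 12, 51 lie over 0.8, and the 5 exceptions at that level are RPL38, RPL22L1, RPS4X at 0.55, RPS18 at 0.18 and RPS2 at -0.34.

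Paralogs were read beside the proteins they resemble. RPL22L1, which can take the place of RPL22 in the ribosome, ran from 12.96 through 13.28 to 13.55 in the high and from 12.63 through 13.12 to 13.72 in the low group. The lowest and the highest sow were both low ones, low 2 and low 3. Its difference was 0.15 with an interval from -0.21 to 0.51 (limma adjusted p = 0.948). RPL22 differed by -0.042 with an interval from -0.31 to 0.22, and correlated with the other members at 0.959, RPL22L1 at 0.768. RPS27L, a stress-responsive paralog induced by p53, ran from 9.98 through 10.18 to 10.29 in the high and from 10.06 through 10.22 to 10.25 in the low group, and correlated at 0.447, against 0.967 for RPS27. RPS27L and RPS27 differed by -0.037 and -0.024. RPL7L1, a factor of ribosome assembly, differed by -0.15 with an interval from -0.46 to 0.16 and correlated at 0.331. RPL26L1 and RPL36AL differed by -0.012 and -0.058 and correlated at 0.762 and 0.921. RPL26, the parent of RPL26L1, averaged 4.20, just above the level of 4, so a comparison of that pair was not made. Parents and paralogs are alike in sequence, as are ribosomal protein genes and their many processed pseudogenes, and cross-hybridization between them was not examined.

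Further probe sets of the same genes seldom carried the pattern. In 24 genes there were 32 of them, and 22 were tested. They lay a median of 6.61 below the brightest, and their median correlation with the score was 0.33, with 4 above 0.8. None passed, with 12 higher and 10 lower in high prolificacy sows and a smallest limma adjusted p of 0.839. Before adjustment 1 of the 22 lay under 0.05, against a background of 5.64% of all probe sets. That one read RPL23 at 7.39 and differed by 0.45. The brightest RPL23 probe set differed by -0.053, and another, at 7.43, by -0.096. A dim probe set of RPL9 had the widest gap, -0.67 at a level of 6.73, where the brightest RPL9 probe set differed by 0.015. In 10 of 20 genes with more than 1 tested probe set, all of them shared the sign of the brightest.

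Other messengers of the translation machinery shared the order of sows. From a list of translation factors and partners whose messengers are known or thought to start with the same pyrimidine tract, 19 genes were tested, 8 higher and 11 lower in high prolificacy sows, with 0 called and a median difference of -0.0031. Of these 15 correlated above 0.8 with the ribosomal protein score. FAU, whose product carries the small subunit protein eS30, correlated at 0.978 and differed by -0.0054. RACK1, a scaffold on the small subunit, correlated at 0.959 and differed by 0.012, and EEF1B2, an exchange factor of elongation factor 1, correlated at 0.983 and differed by -0.067. PABPC1, the poly(A) binding protein, correlated at 0.838 and differed by 0.15, and TPT1, at 14.32, correlated at 0.671. EEF1A1, read at only 8.01, correlated at 0.131. The score of this list spanned 1.02, was lowest in high 4 at -0.45 and highest in high 3 at 0.57, and correlated with the ribosomal protein score at Pearson r = 0.989 and Spearman rho = 0.986 across 12 sows. Without high 3 and high 4, the sows farthest from the median, r was 0.976. No p is given for a score over chosen genes. EEF2, NCL, MTOR, EIF4EBP1, RPS6KB1 and LARP1 were not analysed here.

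The ribosomal proteins of mitochondria had another order of sows. Of 58 such genes, 56 were tested, with 16 higher and 40 lower, 0 called and a median difference of -0.063. Their score correlated with that of the cytosolic set at r = -0.102 (rho = -0.070, and -0.341 without high 3 and high 4), and 0 of them correlated above 0.8. Within the high group r was 0.176 and within the low group -0.678. Factors of ribosome biogenesis had 7 higher and 22 lower of 29 tested, with 0 called, a median difference of -0.061 and r = 0.264 (rho = 0.161). Without high 3 and high 4 that r was -0.390, and it was 0.557 within the high and -0.620 within the low group. NPM1, a nucleolar chaperone, followed at 0.963, while FBL, which methylates ribosomal RNA, correlated at 0.635. These differed by -0.13 and -0.045. Others of that list, named after their values were seen, ran the other way: NOP10, of the particles that modify ribosomal RNA, at -0.892 and NMD3, an export adaptor of the large subunit, at -0.666. Both were lowest in high 3 and highest in high 4. Genes of mTOR and S6 kinase signalling, which adjusts the translation of ribosomal proteins, had 3 higher and 7 lower of 10 tested, with 0 called and r = 0.384 (rho = 0.049, and -0.160 without high 3 and high 4). MYC, a transcription factor that drives ribosome production, had its lowest value of 6.54 in high 4 and its highest of 8.85 in high 3, correlated at 0.733 and differed by 0.14. The genes of that signalling list ranged from -0.929 for RPS6KA3 to 0.857 for SESN1. At an unadjusted p under 0.05 the counts were 0 of the translation partners, the mitochondrial proteins and the mTOR list and 1 of the biogenesis list, against the background of 5.64%.

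Markers of cell types moved with the same sows. Of 8 luteal genes, 6 correlated below -0.8 with the ribosomal protein score and 7 were lowest in high 3, among them STAR, which brings cholesterol into mitochondria, at 14.04 there and 14.80 in high 4. LHCGR, the receptor of luteinizing hormone, did not share this order, with r = 0.148 and 11.91 in high 3 against 11.20 in high 4. The luteal score was lowest in high 3, at -0.45, and highest in high 4, at 0.31, with r = -0.906 (rho = -0.867, and -0.771 without high 3 and high 4). It was -0.98 within the high group and -0.72 within the low group, where the score ran from -0.14 to 0.16. Of 7 stroma and smooth muscle genes tested, 4 correlated above 0.8. TAGLN, an actin-binding protein of smooth muscle, stood at 9.79 in high 4 and 11.92 in high 3. LUM, a matrix proteoglycan of the same list, stood at 10.37 and 10.41 there, with r = -0.160. The stroma score was -0.76 in high 4 and 0.93 in high 3, with r = 0.919 (rho = 0.853, and 0.803 without those sows), with 0.92 within the high group and 0.95 within the low group, where the score ran from -0.68 to 0.40. In such bulk tissue fewer cells of a type and less RNA per cell cannot be told apart.

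Granulosa genes, from growing follicles, gave r = 0.755 (rho = 0.706) over 5 genes tested, 0.94 within the high and 0.21 within the low group. INHBA, an inhibin and activin subunit, ran the other way at -0.788, with an SD of 0.30 over the 12 sows, while the other granulosa genes, at 0.653 to 0.767, had SDs from 0.86 to 2.92 and weigh more in the averaged score. Genes of dividing cells gave r = 0.717 (rho = 0.629) over 8, 0.89 within the high and 0.32 within the low group. Without high 3 and high 4 these were 0.538 and 0.414. Endothelial, macrophage, erythroid and liver markers gave r = -0.489, 0.247, -0.254 and -0.201 over 6, 6, 3 and 2 genes tested, with rho at -0.462, 0.259, -0.182 and -0.077. Genes within these lists differed in sign. SPP1, at 0.586 with an SD of 2.45, weighs most in the macrophage score. AIF1 gave 0.165, and the other macrophage genes lay between -0.355 and -0.214. HBB gave 0.620, against -0.294 for ALAS2 and -0.438 for HBM. Of 11 liver genes on the array only APOA1 and TF were tested. The others correlated from 0.105 to 0.220, among them ALB, at 12.61 in low 1 and 12.40 in low 4 but 2.04 in high 4. The actin 3' difference was smallest in high 3, at 1.95, and among the largest in high 4, at 2.98, but largest in high 2, at 3.23. Across the 12 sows it correlated with the score at r = -0.657 (rho = -0.678, and -0.466 without high 3 and high 4), within the high group at -0.868 and within the low group at -0.508. For GAPDH r was -0.258 (rho = -0.070, and -0.015 without those sows), with opposite signs within the groups, -0.566 in high and 0.561 in low. The ribosomal RNA controls correlated at r = 0.701 for 18S (rho = 0.545, 0.860 within the high and 0.101 within the low group), 0.606 for 28S (rho = 0.622, 0.613 and 0.584) and 0.374 for 5S (rho = 0.224, 0.562 and -0.261). Without high 3 and high 4 these were 0.438, 0.453 and -0.496. The part of tissue makeup and of RNA quality in the shared pattern was not tested.

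**Figure D4:**
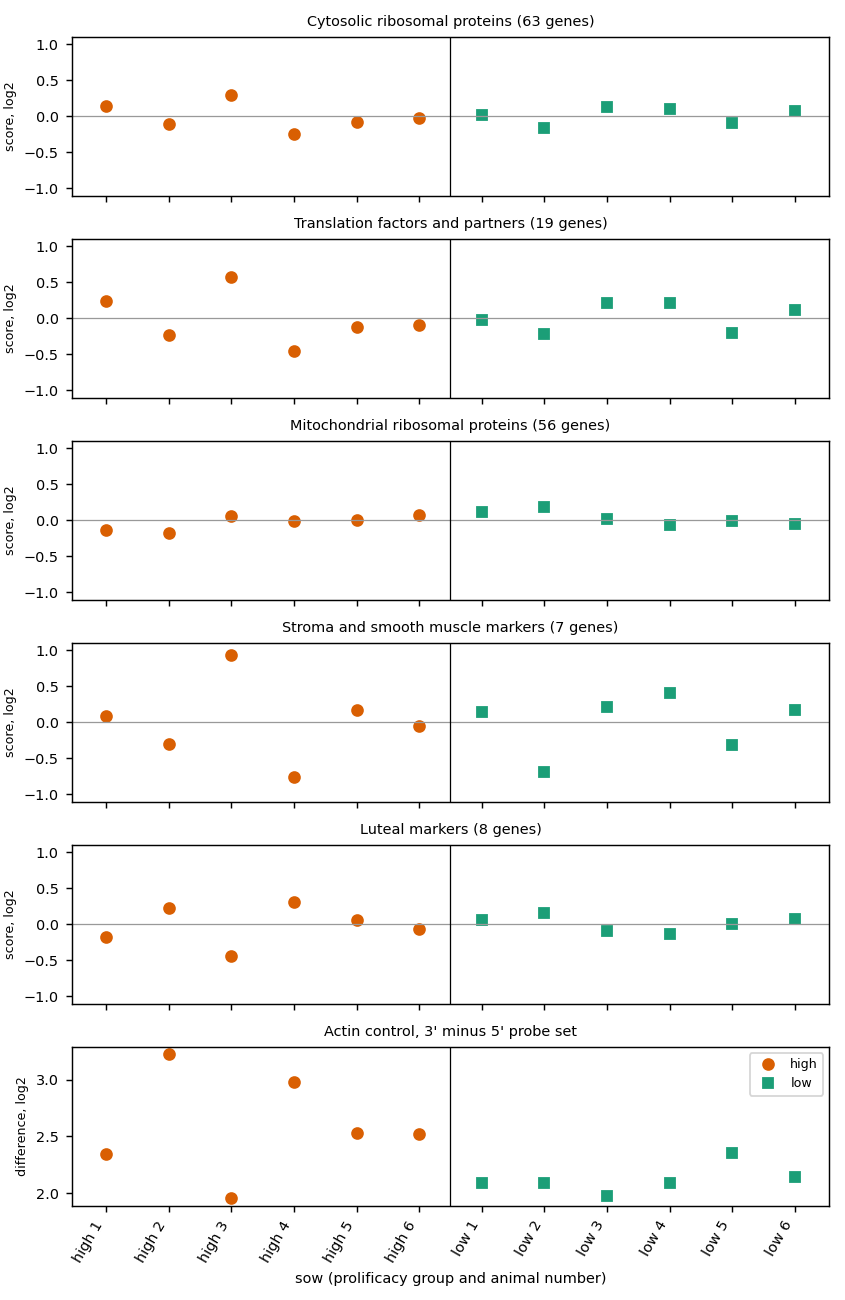
Score per sow on the log2 scale for 5 gene lists and, in the lowest panel, the 3' minus 5' difference of the actin control (y axes), by sow (x axis, circles high and squares low prolificacy). High 3 and high 4 hold the ends of the ribosomal protein score at 0.29 and -0.25, the luteal score turns the other way at -0.45 and 0.31, and the mitochondrial ribosomal proteins stay between -0.18 and 0.18.

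Among 1-symbol genes outside the set, chosen after their values were seen, those nearest to the score in pattern were EEF1B2 at r = 0.983, FAU at 0.978, EIF3H, a subunit of initiation factor 3, at 0.976, RAN, the GTPase of nuclear transport, at 0.975 and EEF1D at 0.971. Those most opposed were OXCT1, of ketone body use, at -0.974, the fatty acid synthase FASN at -0.967, HSD17B12, of fatty acid elongation, at -0.961 and the mitochondrial chaperone HSPA9 at -0.944. RPS6KA3, a kinase of the S6 kinase family left out by the rule, stood at -0.929. These are descriptions over 12 sows whose values come from the same arrays as the score.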

How the data were processed

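The submitters' processing notes name GCOS and GCRMA, with no version given in the sources used here. Values in the deposited table are read as log2 expression per probe set, from their range. GCRMA sets each array relative to all transcripts and compresses dim probe sets. The table held 24123 probe sets in 12 sows, of which 10099 had 1 gene symbol, 198 several and 13826 none. The 64 symbols all matched RefSeq (Sscrofa11.1) by Entrez ID. In all, 8 probe sets that name RPL10, RPL35A, RPL36 or RPS15 beside another gene were not used. No sequence or coordinate was used here.

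The 124 control probe sets were left out, and probe sets above 4 in at least 6 sows were tested (13390). The fit of high against low sows used limma 3.58.1 (lmFit, then eBayes) under R 4.3.3, without covariates, adjusted by Benjamini-Hochberg over all tested. Tests are two-sided. Names in a block of 62 controls were moved by 21 places, which lowered their mean gap to 19 spike controls of like name from 5.17 to 0.451. The actin, GAPDH and ribosomal RNA values, and the actin covariate, rest on the moved names. The members, lists and tests were chosen with earlier results of these data known. Named members are the 6 with the smallest p in each direction, the 6 widest and 4 narrowest in spread, paralogs with their parents, RPS19BP1, and fixed genes. The rule also fixed RPL39 and RPL36A, which are not analysed here, and named other genes by role.

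Sows were unpaired. The labels number the animals 1 to 6 in both groups without naming pairs. Replicates are separate animals, and their number limits the precision. In a simulation of 13390 probe sets for this comparison, calls were made for 74% of those altered by 1 log2 unit, 96% of those altered by 2, and 11 unaltered ones. With no change, 0 were called. Simulated probe sets were drawn independently with the same SD in both groups, unlike the ribosomal protein genes here. Changes as small as those of these genes were not simulated. Alternatives were other filters, quantile normalization, median centring, the animal number as a block, trend and robust moderation, array weights, the actin difference as a covariate, averaged probe sets and leaving out each sow. Leaving out high 2 and high 3 together was added after seeing the data.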

Additional observations from a re-analysis of the deposited data

Results flagged for a closer look

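In 114 groups of 6 values, 4 values stood apart from the others of their group by a gap of more than 0.625 of the group's range, where chance marks about 1 in 20 groups. RPL30 in low 2 stood at 4.08, against 4.56 to 4.67 in the other low sows. RPL26 in high 3 stood at 4.46, against 4.09 to 4.20, and in low 5 at 4.50, against 4.14 to 4.16. Both genes were read only by a probe set close to the level of 4. The endothelial score in high 5 was 0.68, against -0.34 to 0.020 in the other high sows.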

How the results depend on the processing

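No ribosomal protein gene passed under any of 22 alternatives, with smallest limma adjusted p values from 0.251 with the actin covariate to 0.9999 with no filter. The median difference of -0.021 moved beyond the spread between sows only with that covariate, to 0.17. It ran from -0.076 to 0.038 when single sows were left out. The count of 21 genes higher in high prolificacy became 60 with the actin covariate, 7 with array weights, 7 without high 2 and high 3, and 6 to 48 when single sows were left out. The other settings gave 20 to 30. With the animal number as a replicate block 0 genes passed, with 21 higher and a median of -0.021. Same-numbered sows correlated from -0.455 to 0.168, and 1 of 12 sows correlated best with its own number. These correlations cannot exclude a pairing, since a shared factor need not dominate all probe sets. Of 35 named members, 28 turned in sign under at least 1 setting. RPL22L1, RPL38, RPS2, RPS4X, RPS19BP1, RPS21 and RPS25 kept theirs under all 22, and none of the 35 passed. The number of sows limits the detection of smaller differences. Compression near the floor and ceiling of the arrays may do so too and was not tested.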
